A study of Homo sapiens with 3 samples.

Results

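Aminoacyl-tRNA synthetases are the enzymes that load each amino acid onto its tRNA. The 36 synthetase genes described here were named in a list fixed by gene symbol, 20 for the cytosolic enzymes and 16 for the mitochondrial enzymes, and all 36 were found among the 44591 genes of the deposited table. RNA-seq was performed in Caki-1 cells, an established line of human clear cell renal cell carcinoma, transfected for 48 h with 10 nmol/L siRNA. The groups were si-Control, a non-targeting siRNA, and a pair of siRNAs against RBCK1 (HOIL-1), a subunit of the linear ubiquitin ligase, labelled si-HOIL-1#1 and si-HOIL-1#2 and called siRBCK1 #1 and siRBCK1 #2 below. There was 1 library per group, 3 libraries in all. Levels are therefore single values, no difference has a replicate check or a p-value, and both comparisons share the si-Control library. The comparison addressed which synthetase mRNAs differed after RBCK1 depletion and whether cytosolic and mitochondrial enzymes differed alike.

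Most amino acids have separate nuclear genes for the enzyme that serves cytosolic ribosomes and the enzyme that is imported to serve mitochondrial ribosomes. GARS and KARS are exceptions, since each gene encodes both forms. EPRS charges both glutamate and proline, and phenylalanine is charged in the cytosol by an enzyme of FARSA and FARSB subunits. In the amino acid response, the transcription factor ATF4 is known to raise a subset of the cytosolic synthetase genes together with amino acid transporters and biosynthetic enzymes, through composite C/EBP-ATF elements. Several cytosolic synthetases are held together in a multi-synthetase complex on the scaffold proteins AIMP1, AIMP2 and EEF1E1.

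The 8-base core of that element, TGATGCAA, was searched on both strands in RefSeq windows (GRCh38.p14) that run from 250 bases before to 50 bases after a gene start, because the genes that carry it could be set beside their RNA levels. Windows were found for 30 of the 36 genes, 16 cytosolic and 14 mitochondrial. A match was found for 6 of the 16 cytosolic genes and 0 of the 14 mitochondrial genes. Of all 27305 genes with a window, 1.08% held one. Some genes have more than 1 window, and 0.866% of all 35116 windows held a match. The matches follow on the gene's own strand, 5′ to 3′, with 11 bases on either side and the match in capitals (TTGCATCA is TGATGCAA read on the other strand).
AARS: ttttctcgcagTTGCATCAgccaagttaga
CARS: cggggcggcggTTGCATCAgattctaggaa
IARS: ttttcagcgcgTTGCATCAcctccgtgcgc
MARS: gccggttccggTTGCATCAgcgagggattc
NARS: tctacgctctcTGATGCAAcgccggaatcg
TARS: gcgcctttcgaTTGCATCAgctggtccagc
The stretches lie at chr16:70289675-70289704 (minus strand) for AARS, chr11:3057407-3057436 (minus) for CARS, chr9:92293692-92293721 (minus) for IARS, chr12:57488053-57488082 (plus) for MARS, chr18:57621804-57621833 (minus) for NARS and chr5:33440956-33440985 (plus) for TARS. The first base of the match was at position -187 from the gene start in AARS, -13 in IARS, -4 in MARS, -2 in CARS, 3 in TARS and 15 in NARS, so that 5 of the 6 lay within a short distance of the start. In AARS, the element stood in the following 250 bases before the start (chr16:70289507-70289756, minus strand), which are shown because this gene had the highest synthetase level in si-Control.
AARS upstream: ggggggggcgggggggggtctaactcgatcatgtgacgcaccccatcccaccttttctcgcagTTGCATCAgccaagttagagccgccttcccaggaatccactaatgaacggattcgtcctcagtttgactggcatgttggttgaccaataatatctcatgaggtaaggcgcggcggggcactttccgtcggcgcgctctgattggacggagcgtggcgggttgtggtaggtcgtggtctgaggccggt
TGATGNAA, with any base allowed at the sixth position, includes the first motif. It was held by 3.62% of all windows and by 4.46% of all genes with a window. GARS and the mitochondrial gene YARS2 were added with it:
GARS: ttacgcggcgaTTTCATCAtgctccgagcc
YARS2: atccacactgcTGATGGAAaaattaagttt
These lie at chr7:30594834-30594863 (plus) and chr12:32756076-32756105 (minus). A match is a description of the sequence and does not show that a factor was bound.

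The unit of the table is not named in the sources used here, and it was read from the values as RPKM, that is, reads scaled to gene length and library size. The reads behind this scaling were 36926834 for si-Control, 40442939 for siRBCK1 #1 and 36344428 for siRBCK1 #2. RBCK1 itself was at 33.3 RPKM with si-Control, 9.97 RPKM with siRBCK1 #1 and 12.3 RPKM with siRBCK1 #2, that is, 29.9% and 36.8% of si-Control. Of the renal epithelial carcinoma markers, PAX8, KRT8, KRT18, VIM and MET were at 65.6 RPKM or more in every library and KRT19 was at 1.38 RPKM or less, while markers of leukocytes, endothelium, smooth muscle and hepatocytes were at 0.381 RPKM or less. Of these 6 markers, 4 were above si-Control with both siRNAs (log2 ratios of 1.19 and 1.07 for VIM, 1.38 and 1.84 for KRT8, 0.57 and 0.84 for KRT18 and 0.47 and 0.74 for KRT19) and both others were below it (-0.59 and -0.22 for PAX8, -0.36 and -0.40 for MET). KRT19 averaged 0.927 RPKM, under the limit of 1 RPKM given below, and its ratios rest on few reads (at least 23, 58 and 74). The part of these markers in the synthetase values was not tested. Less RNA per cell and fewer cells of a kind cannot be told apart in bulk samples. Log2 ratios to si-Control are given on the log2(RPKM + 1) scale for the 12403 genes that averaged 1 RPKM or more over the libraries, and all 36 synthetases were among them. Intervals are exact 95% intervals on whole reads recovered from the RPKM values, and cover counting error only. They belong to the ratio of reads without a pseudocount, so they are not centred on the log2(RPKM + 1) ratios printed beside them. The intervals do not cover differences between cultures.

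Cytosolic synthetase mRNAs were mostly lower after transfection with either siRBCK1, and mitochondrial synthetase mRNAs were mostly near or above si-Control. The median log2 ratio of the 20 cytosolic genes was -0.30 with siRBCK1 #1 and -0.41 with siRBCK1 #2, beside 0.02 and 0.03 over all genes tested. For the 16 mitochondrial genes the medians were 0.17 and 0.20. In each library 15 of 20 cytosolic genes were below si-Control, and 11 and 12 of 16 mitochondrial genes were above it. Of the 12403 genes tested, 6009 with siRBCK1 #1 and 5756 with siRBCK1 #2 were below si-Control. Above it were 6393 and 6641. The summed level of the cytosolic genes was 1831 RPKM with si-Control, 1368 RPKM with siRBCK1 #1 (74.7%) and 1288 RPKM with siRBCK1 #2 (70.4%). The mitochondrial sum was 237.8 RPKM with si-Control, 251 RPKM (106%) with siRBCK1 #1 and 248 RPKM (104%) with siRBCK1 #2.

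**Figure D1:**
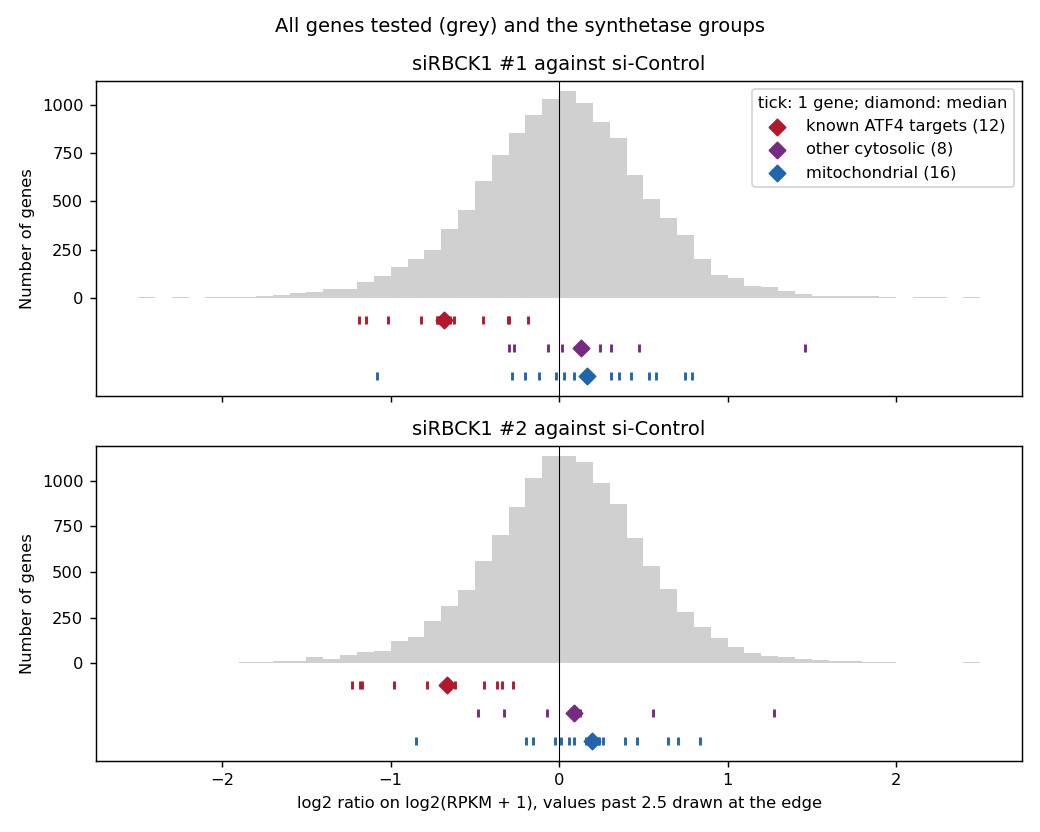
Number of genes (vertical axis) at each log2 ratio to si-Control on the log2(RPKM + 1) scale (horizontal axis) for siRBCK1 #1 (upper panel) and siRBCK1 #2 (lower panel), 1 library each, with all 12403 genes tested in grey, each synthetase as a tick and each group's median as a diamond. The 12 cytosolic genes known as ATF4 targets all lie left of 0, with medians of -0.68 and -0.67, while the other 8 cytosolic and the 16 mitochondrial genes have medians between 0.09 and 0.20. The list of 12 was chosen with earlier results of these data known.

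A gene was called lower or higher when it differed at least 1.5-fold from si-Control. Among all genes tested, 6.24% were called lower in both libraries and 7.47% were called higher in both. Taken singly, 11.6% of all genes were called lower and 12.1% higher with siRBCK1 #1, and 9.32% lower and 11.3% higher with siRBCK1 #2. Of the 20 cytosolic synthetases, 8 were called lower in both (AARS, CARS, GARS, MARS, NARS, SARS, WARS and YARS) and 1 was called higher in both (HARS). Of the 16 mitochondrial synthetases, 1 was called lower in both (NARS2) and 2 were called higher in both (AARS2 and EARS2). At a 2-fold limit, 3 cytosolic genes were lower in both libraries (AARS, MARS and YARS), where 1.41% of all genes were. HARS was then the only synthetase higher in both, where 1.46% of all genes were. In single libraries the 2-fold limit was passed downward by 3.27% (siRBCK1 #1) and 2.27% (siRBCK1 #2) of all genes and upward by 2.91% and 2.5%.

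AARS, the alanyl-tRNA synthetase (chromosome 16 from 70286297 to 70323412, minus strand, in the hg19 coordinates of the table), was at 275 RPKM with si-Control, 124 RPKM with siRBCK1 #1 and 117 RPKM with siRBCK1 #2. It was the highest of the synthetases in si-Control and stood below KARS and GARS in both siRBCK1 libraries. The AARS log2 ratio was -1.15 with siRBCK1 #1 (interval -1.18 to -1.13) and -1.23 with siRBCK1 #2 (interval -1.27 to -1.21). MARS, the methionyl-tRNA synthetase, which charges both initiator and elongator tRNA (chromosome 12 from 57881736 to 57910438, plus strand), had levels of 93.3 RPKM, 40.4 RPKM and 40.8 RPKM. Both siRBCK1 libraries were at nearly the same level, 43.4% and 43.8% of si-Control. The log2 ratios of MARS were -1.19 (interval -1.26 to -1.16) and -1.17 (interval -1.24 to -1.14). In the table MARS overlaps 68 bases of DDIT3 on the opposite strand, a gene at 117 RPKM, 59.8 RPKM and 76.4 RPKM, and the strand setting of the counting was not stated in the sources used here. YARS, the tyrosyl-tRNA synthetase (chromosome 1 from 33240840 to 33283633, minus strand), was at 133 RPKM, 65.1 RPKM and 58.1 RPKM, so it was below 50% of si-Control in each siRBCK1 library. The YARS log2 ratios were -1.02 (interval -1.07 to -0.99) and -1.18 (interval -1.24 to -1.15). YARS overlaps 591 bases of S100PBP on the opposite strand, a gene at 9.23 RPKM, 8.96 RPKM and 7.04 RPKM.

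The next genes in size were SARS, WARS, CARS, GARS and NARS. SARS, the seryl-tRNA synthetase, was at 68.7 RPKM with si-Control, 41.2 RPKM with siRBCK1 #1 and 34.3 RPKM with siRBCK1 #2 (log2 ratios of -0.72 and -0.98), and siRBCK1 #2 was the lower of the siRBCK1 libraries. WARS, the tryptophanyl-tRNA synthetase, which is also known as an interferon-induced gene, was at 76.8 RPKM, 43.0 RPKM and 44.1 RPKM (-0.82 and -0.79). CARS, the cysteinyl-tRNA synthetase, was at 51.6 RPKM, 30.9 RPKM and 32.5 RPKM (-0.72 and -0.65). In these genes both siRBCK1 libraries lay well under si-Control and close to each other except in SARS. GARS, the glycyl-tRNA synthetase, was at 199 RPKM, 126 RPKM and 123 RPKM (-0.65 and -0.68). NARS, the asparaginyl-tRNA synthetase, was at 80.7 RPKM, 52.1 RPKM and 52.2 RPKM (-0.62 and -0.62) and was the nearest of the called genes to the limit of -0.58. EPRS, at 126 RPKM, 91.6 RPKM and 91.8 RPKM (-0.45 and -0.45), was the nearest gene outside it with siRBCK1 #1, and FARSB (-0.48) was the nearest with siRBCK1 #2. DARS, FARSB, IARS, LARS and TARS, which charge aspartate, phenylalanine, isoleucine, leucine and threonine, were also below si-Control and not called, with log2 ratios from -0.48 to -0.19 in either library. With EPRS, the counting intervals of these genes lay below 0 in both libraries, as did those of the 8 called genes.

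HARS, the histidyl-tRNA synthetase (chromosome 5 from 140053489 to 140071312, minus strand), went the other way. Its level was 19.3 RPKM with si-Control (1645 reads), 54.8 RPKM with siRBCK1 #1 (5113 reads) and 48.2 RPKM with siRBCK1 #2 (4041 reads), 2.84-fold and 2.5-fold higher. It was among the lowest of the cytosolic genes in si-Control, beside QARS, and stood in the middle of them with either siRNA. The log2 ratios were 1.46 (interval on reads 1.42 to 1.59) and 1.28 (interval 1.24 to 1.40). HARS lies head to head with its mitochondrial paralog HARS2 (chromosome 5 from 140071011 to 140078903, plus strand), with 302 bases of overlap in the table. In RefSeq (GRCh38.p14) the 2 starts are 84 bases apart. HARS2 was at 18.7 RPKM, 25.5 RPKM and 22.2 RPKM, with log2 ratios of 0.43 and 0.23 that did not reach the 1.5-fold limit. The coding sequences of the pair are similar, and how the counting divided reads between them is not given in the sources used here.

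The remaining cytosolic genes were near si-Control or somewhat higher. QARS, the glutaminyl-tRNA synthetase, was at 19.0 RPKM with si-Control, 26.7 RPKM with siRBCK1 #1 and 28.4 RPKM with siRBCK1 #2 (log2 ratios of 0.47 and 0.56), the only one of them close to the limit. RARS, the arginyl-tRNA synthetase, was at 78.3 RPKM, 97.2 RPKM and 85.2 RPKM (0.31 and 0.12). KARS, the lysyl-tRNA synthetase, was at 143 RPKM, 170 RPKM and 136 RPKM, so that siRBCK1 #1 was above and siRBCK1 #2 below si-Control (0.24 and -0.07). VARS, the valyl-tRNA synthetase, went in opposite directions as well (-0.07 and 0.09). FARSA was at 57.2 RPKM, 58.0 RPKM and 61.1 RPKM (0.02 and 0.10), and its value with siRBCK1 #1 was -0.04 when libraries were scaled to equal totals. The other subunit of the same enzyme, FARSB, was at 42.1 RPKM, 34.8 RPKM and 29.9 RPKM (-0.27 and -0.48), so the FARSA and FARSB mRNAs did not keep the same proportion.

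The cytosolic genes were divided by a list of known ATF4 targets, which came from general knowledge. Earlier results of these data were known when the list was chosen, so the division is a description and not independent support. Whether ATF4 took part in the differences was not tested. All 12 genes of that list (AARS, CARS, EPRS, GARS, IARS, LARS, MARS, NARS, SARS, TARS, WARS and YARS) were below si-Control in both libraries, with log2 ratios from -1.19 to -0.19 and from -1.23 to -0.27 and medians of -0.68 and -0.67. The 8 genes called lower in both libraries all belonged to it. Of the 12403 genes tested, 4741 were below si-Control in both libraries. Of the other 8 cytosolic genes (DARS, FARSA, FARSB, HARS, KARS, QARS, RARS and VARS), 0 were called lower and 1 was called higher, and their medians were 0.13 and 0.09. The summed level of the 12 listed genes was 1394 RPKM, 858 RPKM and 826 RPKM, or 61.5% and 59.2% of si-Control, while the sum of the other 8 was 117% and 106% of si-Control. The 8 enzymes of the multi-synthetase complex (DARS, EPRS, IARS, KARS, LARS, MARS, QARS and RARS) were spread over both directions, with medians of -0.24 and -0.30 and MARS as the only one called. The 12 cytosolic genes outside the complex had medians of -0.64 and -0.63, with 7 called lower and HARS called higher in both libraries. Division by the structural class of the catalytic domain gave medians of -0.38 and -0.41 for the 10 genes of class I and -0.30 and -0.41 for the 10 of class II, with 4 called lower in each class.

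The 6 cytosolic genes with a TGATGCAA match in the windows printed above were all below si-Control in both libraries, with medians of -0.67 and -0.63, and AARS, CARS, MARS and NARS were among the genes called lower. Below si-Control in both libraries were 4741 of the 12403 genes tested. IARS, with log2 ratios of -0.19 and -0.27, and TARS, with -0.30 and -0.34, held the same 8 bases and were not called. The 10 cytosolic genes with windows and no match had medians of -0.13 and -0.26. They included WARS, SARS and GARS, which were called lower, and HARS, which was called higher. Across the 9271 genes tested that had a window, 65 held the match (0.701%), with medians of -0.19 and -0.21, beside 0.03 and 0.04 for genes with a window and no match. Of these 65 genes, which include the 6 synthetases, 15 (23.1%) were called lower in both libraries, among them AARS, CARS, MARS and NARS. The share was 5.77% of the genes with a window and no match and 6.24% of all genes tested. Of the 24 other amino acid response genes described below, 19 had a window and 1 of these held the match. It was CHAC1, with log2 ratios of -0.22 and -0.62, called lower with siRBCK1 #2 only. STC2 and ASNS had windows and no match to TGATGCAA. With any base allowed at the sixth position, 4 of the 19 held a match, among them CHAC1 and ASNS but not STC2. The share for that looser form was 2.61% of the 9271 genes tested that had a window. No windows were at hand for DARS, LARS, VARS and YARS.

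Mitochondrial synthetase mRNAs were low compared with the cytosolic ones. The median level was 8.51 RPKM with si-Control against 79.5 RPKM for the cytosolic genes, and 10 of 16 were under 10 RPKM in si-Control. IARS2 was an exception at 87.3 RPKM with si-Control, 80.2 RPKM with siRBCK1 #1 and 78.2 RPKM with siRBCK1 #2 (log2 ratios of -0.12 and -0.16). NARS2, the mitochondrial asparaginyl-tRNA synthetase (chromosome 11 from 78147007 to 78285909, minus strand), was the only one called lower. Its level was 17.8 RPKM with si-Control from 1655 reads, 7.87 RPKM with siRBCK1 #1 from 802 reads and 9.43 RPKM with siRBCK1 #2 from 863 reads. The siRBCK1 libraries were thus at 44.2% and 53.0% of si-Control. The log2 ratios of NARS2 were -1.08 (interval on reads -1.30 to -1.05) and -0.85 (interval on reads -1.04 to -0.80), which placed it among the larger differences of either compartment.

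Genes called higher were EARS2 and AARS2 in both libraries and SARS2 with siRBCK1 #2. EARS2, the mitochondrial glutamyl-tRNA synthetase (chromosome 16 from 23533334 to 23568696, minus strand), was at 8.42 RPKM with si-Control, 14.8 RPKM with siRBCK1 #1 and 13.8 RPKM with siRBCK1 #2 (log2 ratios of 0.75 and 0.65). AARS2, the mitochondrial alanyl-tRNA synthetase (chromosome 6 from 44266463 to 44281063, minus strand), was at 3.43 RPKM, 6.64 RPKM and 6.21 RPKM (0.79 and 0.70). The fewest reads of the family stood behind AARS2, at least 101, 214 and 180, and its intervals on reads were the widest, 0.60 to 1.31 and 0.50 to 1.22. SARS2, the mitochondrial seryl-tRNA synthetase, was at 4.36 RPKM, 6.75 RPKM and 8.58 RPKM (0.53 and 0.84). It overlaps 189 bases of MRPS12, a mitochondrial ribosomal protein gene on the opposite strand that was at 27.9 RPKM, 36.6 RPKM and 48.4 RPKM. TARS2 was at 14.4 RPKM, 21.9 RPKM and 20.2 RPKM (0.58 and 0.46), just inside the limit. With a pseudocount of 5 RPKM, 0 mitochondrial genes were called higher in either library, since that pseudocount exceeds the level of several of them.

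The other mitochondrial genes differed less. LARS2 (0.31 and 0.39), HARS2 (0.43 and 0.23), MARS2 (0.15 and 0.26) and YARS2 (0.18 and 0.16) were above si-Control in both libraries with both counting intervals above 0. WARS2 (-0.28 and -0.19) was below it with both intervals below 0. RARS2, PARS2 and CARS2 had log2 ratios between -0.02 and 0.09 and intervals that reached 0 in both libraries. FARS2 was at 3.24 RPKM, 4.43 RPKM and 3.28 RPKM (0.36 and 0.01), so only siRBCK1 #1 stood apart. VARS2 was at 8.61 RPKM, 7.34 RPKM and 10.3 RPKM and lay on opposite sides of si-Control (-0.20 and 0.23).

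Setting each mitochondrial enzyme beside the cytosolic enzyme for the same amino acid gave 17 pairs, as EPRS stood in 2 of them and FARS2 had FARSA and FARSB as partners. The cytosolic level was above the mitochondrial level in every library for all 17 pairs, and the ratio of the levels was smaller with both siRNAs than with si-Control in 12 of 17. AARS was at 80.3 times the level of AARS2 with si-Control, 18.7 times with siRBCK1 #1 and 18.8 times with siRBCK1 #2, the widest change of the pairs. The ratio of MARS to MARS2 was 15.7, 6.07 and 5.60 in the same order. For SARS and SARS2 it was 15.7, 6.11 and 4.0, and for YARS and YARS2 it was 8.79, 3.76 and 3.41. In these pairs the cytosolic gene was lower and the mitochondrial gene was above si-Control. For asparagine both genes were called lower, and the ratio of NARS to NARS2 was 4.54, 6.62 and 5.54. For histidine the ratio moved the other way from alanine, with HARS at 1.03 times HARS2 in si-Control and 2.15 and 2.17 times with the siRNAs. Both histidine genes were above si-Control in both libraries. IARS stayed slightly above IARS2, at ratios of 1.30, 1.24 and 1.2.

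Other genes of tRNA charging were taken from a list of 12, of which 11 passed the filter and AARSD1, an editing factor at 0.715 RPKM or less, did not. Called lower in both libraries was 1 of the 11, beside 6.24% of all genes tested. It was SEPSECS, the enzyme that makes selenocysteine from phosphoserine on its tRNA. Its level was 7.25 RPKM with si-Control, 3.48 RPKM with siRBCK1 #1 and 2.69 RPKM with siRBCK1 #2 (log2 ratios of -0.88 and -1.16). Taken singly, 1 of the 11 was called lower with siRBCK1 #1, beside 11.6% of all genes. With siRBCK1 #2, 3 were called lower (SEPSECS, AIMP1 and DTD1), beside 9.32% of all genes. Among the complex scaffolds, AIMP1 was at 25.5 RPKM, 17.3 RPKM and 16.5 RPKM (-0.53 and -0.60) and AIMP2 at 35.6 RPKM, 23.7 RPKM and 24.7 RPKM (-0.57 and -0.51). Both lay at the edge of the limit, while EEF1E1 did not (0.08 and -0.25). DTD1, which removes D-amino acids from tRNA, and DTD2, listed with it as an editing factor, had log2 ratios of -0.56 and -0.74 and of -0.35 and -0.30. The subunits of the mitochondrial amidotransferase that makes Gln-tRNA, GATB (-0.15 and 0.01), GATC (0.56 and 0.31) and QRSL1 (0.28 and -0.02), MTFMT, which formylates the mitochondrial initiator (0.08 and 0.20), and PSTK, the kinase that acts before SEPSECS (0.10 and 0.18), were not called. Of 9 elongation factors, which receive the charged tRNA or move the ribosome along, 1 was called higher in both libraries (EEF1D, 0.62 and 0.65), beside 7.47% of all genes tested. Called lower were 0 of the 9, beside 6.24%, and their medians were 0.30 and 0.15.

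Of 24 genes of the amino acid response that are not synthetases, 20 were below si-Control in both libraries, with medians of -0.84 and -0.74. Over all genes tested, 4741 of 12403 were below si-Control in both. The list of 24 was also chosen with earlier results of these data known. In both libraries 15 of the 24 were called lower, beside 6.24% of all genes tested, and 1 was called higher (ATF5, 0.69 and 0.81), beside 7.47%. Ranked by the smaller of the changes in either library, the first 4 were STC2, a secreted glycoprotein (log2 ratios of -2.28 and -2.14), NUPR1, a stress-induced chromatin protein (-1.44 and -1.43), ASNS, the asparagine synthetase (-1.40 and -1.71), and SLC7A11, the cystine transporter (-1.47 and -1.32). ATF4 mRNA was at 134 RPKM, 110 RPKM and 96.0 RPKM (-0.28 and -0.48) and was not called. ATF4 is regulated mainly in translation, which these data do not measure.

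The synthetases were also compared between the siRBCK1 libraries. The same differences and intervals were not computed over all genes tested, so no share of all genes stands beside the counts given here. The difference of the log2 ratios was at most 0.44 in size (VARS2), its median size was 0.09, and it was over 0.2 in 7 of the 36 genes. Counting intervals of the direct ratio of siRBCK1 #2 to siRBCK1 #1 did not reach 0 in 21 of the 36, among them KARS (-0.35 to -0.28), SARS (-0.31 to -0.22) and VARS2 (0.37 to 0.60). RBCK1 was at a log2 ratio of -1.65 with siRBCK1 #1 and -1.37 with siRBCK1 #2.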

How the data were processed

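RNA from 3 Caki-1 libraries (si-Control, siRBCK1 #1 and siRBCK1 #2) was analysed from the table the authors deposited, which holds 1 value per gene and library, read here as RPKM because low values are whole multiples of a step set by gene and library. The submitters' processing notes name FastQC, Trimmomatic, TopHat2, HTSeq and hg19. Roles, the annotation and the strand setting are not given in the sources used here. The authors' own comparison (5 columns with the level in either arm, a log2 ratio and its p- and q-values) was not used. Genes with 3 values and a mean of at least 1 RPKM were kept, and log2 ratios used a pseudocount of 1 RPKM, which understates changes of low genes. No test across libraries was made, because each group had 1 library.

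Total reads per library were found from RNAs of up to 200 nt, whose RPKM times length gave whole reads for 99.0% to 99.5% (tolerance 0.02 reads). For each synthetase, lengths up to 50000 nt were searched for the smallest whole reads behind the 3 values. These may understate the reads and so widen the intervals (exact Clopper-Pearson, 95%). Depth sets the precision, with at least 101 and at most 34015 reads per synthetase and library.

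The members and lists were chosen with earlier results of these data known, and lists came from general knowledge. The text names all members and RBCK1, the charging genes, elongation factors called in both libraries and the 4 amino acid response genes with the largest change, taking the smaller of the changes in either library. ATF4, ATF5 and CHAC1 were added after their values were seen, and the cell markers, DDIT3, S100PBP and MRPS12 are given as values beside a result. Alternatives were pseudocounts of 0.1 and 5 RPKM, other filters, scaling to equal medians or totals, a 2-fold limit, protein-coding genes only, means, and cytosolic genes without GARS and KARS. The steps were tested on simulated data. Computation was in Python 3.11.15 with scipy 1.17.1, pandas 2.3.3 and numpy 2.4.6, and plots were drawn with matplotlib 3.10.9.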

Additional observations from a re-analysis of the deposited data

How the results depend on the processing

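No paired analysis was possible because only 1 library stood for each siRNA. The median of the cytosolic synthetases moved to -0.36 with siRBCK1 #1 under equal totals and to -0.46 with siRBCK1 #2 under equal medians. With a 2-fold limit, 3 cytosolic genes were lower with each siRNA, 0 mitochondrial genes were higher with either, and 0 were lower with siRBCK1 #2. Mitochondrial genes higher with siRBCK1 #1 numbered 4 with a pseudocount of 0.1 RPKM and 0 with 5 RPKM, and with siRBCK1 #2 they numbered 0 with 5 RPKM. Over all genes, with siRBCK1 #1 and siRBCK1 #2, a pseudocount of 5 RPKM gave 590 and 475 lower and 684 and 597 higher, keeping only genes that averaged 5 RPKM or more gave 795 and 690 lower, and a 2-fold limit gave 405 and 281 lower and 361 and 310 higher. Larger pseudocounts shrink ratios of low genes and stricter limits call fewer genes by construction. The cause of the other moves was not tested. Scaling to equal medians or totals moved the median of all genes by at most 0.05 in size. Of 512 single-gene values under alternatives, 462 moved by less than the counting interval and 50 by more, with 4 sign changes, in FARSA (siRBCK1 #1), RARS2 (siRBCK1 #1) and FARS2 (siRBCK1 #2), all of them values under the 1.5-fold limit. NARS with siRBCK1 #2 was at -0.58 with a pseudocount of 5 RPKM, just short of the limit. SARS2 and TARS2 with siRBCK1 #1 passed the limit with a pseudocount of 0.1 RPKM (0.62 and 0.61) and on whole reads (0.63 and 0.61), the latter an alternative chosen after seeing the data.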
